A study of Homo sapiens with 18 samples.

Results

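The genes described here encode the kinase that drives cells into mitosis, CDK1, and the proteins that bind it or switch it on and off. They are 10 in number: CDK1 itself, the cyclins CCNB1, CCNB2 and CCNA2, the small kinase subunits CKS1B and CKS2, the phosphatases CDC25A, CDC25B and CDC25C, and the inhibitory kinase WEE1. They were chosen by symbol, and they and the lists below were chosen with earlier results of these data known. Each symbol matched 1 of the 60504 Ensembl identifiers in the table, and all 10 were among the 14936 genes tested. Their levels were measured by 3' end RNA sequencing in A375 cells, an established human melanoma line with an activating BRAF mutation. The cells were left untreated for 24 h, exposed to 0.32, 0.63 or 1.25 µM IMD-0354 for 24 h, left untreated for 48 h, or exposed to 0.63 µM for 48 h, with 3 libraries in each of these 6 groups. IMD-0354 is a compound known as an IKKβ inhibitor. No vehicle is named for untreated cells, and nothing states that replicate libraries are separate cultures. The p-values therefore measure the spread between these libraries, which may be technical.

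CDK1 is active only when bound to a cyclin. Cyclin A2 works from DNA replication to early mitosis, and cyclins B1 and B2 carry the complex into mitosis. CKS proteins dock on the kinase and guide it to substrates that already carry phosphate, and CKS1B also serves the ubiquitin ligase that destroys the CDK inhibitor p27. WEE1 holds CDK1 inactive by phosphorylating it, and the CDC25 phosphatases remove that phosphate. Most of these genes are transcribed periodically: they are kept silent in resting cells and switched on late in the cell cycle, in large part through a short promoter element, the cell cycle genes homology region or CHR, and through CCAAT boxes upstream of it. The CHR is a site of the MuvB complexes, and CCAAT boxes are the sites of NF-Y.

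Levels are given in TPM, which scales every library to the same total and divides by transcript length, so the depth of a library is unknown. No 2 of the 18 libraries were identical. Among 153 pairs of libraries Pearson's r of log2(TPM + 1) across genes ran from 0.866 to 0.956, and genes are not independent replicates. Replicates 2 and 3 of untreated cells at 24 h had the lowest mean r with their own group (0.907 and 0.920), and 24 h results are also given without them. The lineage markers SOX10 (8.29 to 34.7 TPM) and MITF (2.87 to 16.8 TPM) were present in every library, while the pigment enzymes TYR and TYRP1 were at 0 in all 18. The summed level of 8 melanocyte markers was 16.0 to 19.7 TPM after 0.63 µM for 48 h and 31.5 to 35.4 TPM in untreated cells of that time. At 24 h this sum lay within the untreated range, 21.8 to 54.8 TPM, at every dose. SOX10 and MITF made up most of it, since MLANA, PMEL, DCT and S100B had medians of at most 0.065 TPM. The sum of 4 markers of dedifferentiated melanoma was 60.2 to 111 TPM in untreated cells at 24 h. It overlapped with this range at the lowest dose. It was 148 to 189 TPM after 0.63 µM and 147 to 158 TPM after 1.25 µM for 24 h. At 48 h it was 135 to 150 TPM after 0.63 µM and 108 to 115 TPM in untreated cells. AXL made up most of this sum, with a median of 91.0 TPM over the 18 libraries. NGFR, EGFR and SOX9 had medians of 9.7, 10.8 and 13.8 TPM. The part of these marker changes in the results was not tested. The leukocyte markers PTPRC and CD3E were at 0 in all 18 libraries.

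Promoter sequences were taken from RefSeq (GRCh38.p14), which held 16 sequences for 9 of the 10 genes (WEE1 was the other), each from 250 bases before to 50 bases after a transcription start. A CHR spelling was searched on both strands as TTTGAA or TTCGAA, and, added after the sequences had been seen, as TTTAAA or CTTGAA. It lay between 40 and 10 bases before a start in 8 of the 9 genes, CDC25A being the exception. The 30 bases around these matches are shown to let them be compared. CDK1, CDC25B and CDC25C have other starts without a CHR spelling in that stretch. The capitals mark the CHR spelling, each sequence runs 5′ to 3′ on the strand of its gene, and positions are 1-based in GRCh38.p14.
CDK1 (chr10:60778453-60778482, plus strand): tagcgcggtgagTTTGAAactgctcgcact
CCNB1 (chr5:69167108-69167137, plus strand): agcagtgcggggTTTAAAtctgaggctagg
CCNB2 (chr15:59105105-59105134, plus strand): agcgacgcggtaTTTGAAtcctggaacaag
CCNA2 (chr4:121823894-121823923, minus strand): agtcgcgggataCTTGAActgcaagaacag
CKS1B (chr1:154974639-154974668, plus strand): gcgggcggcgtgTTTGAAagcgaggccaaa
CKS2 (chr9:89311154-89311183, plus strand, with the element in reverse): cgggctgtcggaTTCAAAtccggatcgttg
CDC25B (chr20:3796260-3796289, plus strand): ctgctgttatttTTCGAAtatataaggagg
CDC25C (chr5:138331817-138331846, minus strand): gctggcggaaggTTTGAAtggtcaacgcct

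The first base of the element stood 28 to 30 bases before the start in CCNA2, CCNB2, CKS2, CCNB1, CKS1B and CDC25C, 38 bases before it in CDC25B and 13 bases before it in CDK1. A CHR spelling in that stretch was found in 8 of the 16 sequences of these genes (50.0%) and in 4.44% of all 35116 RefSeq promoter sequences of the same length. The stretch was chosen after the sequences had been seen. CCAAT, searched on both strands, was present in 12 of the 16 sequences (75.0%) against 34.6% of all, and 2 or more copies were present in 43.8% against 10.8%. CCNB2 held 3 copies spaced 33 and 33 bases apart, and CCNB1, CDK1 and CKS1B each held a pair spaced 32 bases apart. The E2F-like spelling TTTNNCGC was found in promoter sequences of CDK1 and CDC25A, in 3 of 16 sequences (18.8%) against 6.89% of all. The GC box GGGCGG was in 81.3% against 45.0%. Sequences of neighbouring starts overlap in CDK1 and in CDC25C, so some of their matches are counted more than once. These are matches of letters and not sites shown to be bound in these cells.

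**Figure D1:**
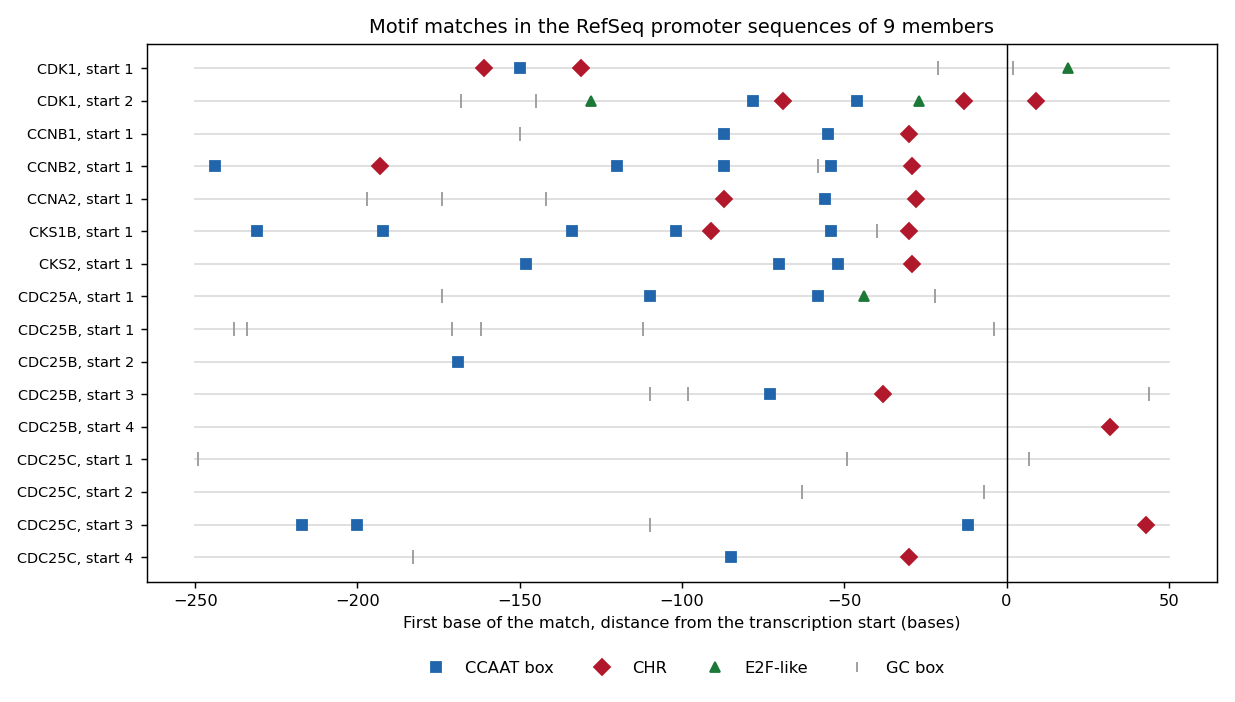
Places of CCAAT boxes, CHR spellings, E2F-like spellings and GC boxes (GGGCGG) in the 16 RefSeq promoter sequences of 9 genes. The x axis is the distance in bases of a match's first base from the transcription start, each line is 1 sequence, and alternative starts of a gene are numbered along its strand. In 8 genes a CHR spelling lies 40 to 10 bases before a start, with CCAAT boxes upstream of it.

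Transcripts of most of these genes were lower after the highest dose and after the longer exposure. After 1.25 µM for 24 h, 6 of the 10 genes had fallen (CDK1, CCNB1, CCNB2, CCNA2, CKS2 and CDC25B) and none had risen, where 6.36% of all genes tested had fallen. After 0.63 µM for 48 h, 7 had fallen (CDK1, CCNB1, CCNB2, CCNA2, CKS1B, CKS2 and CDC25A), where 5.68% of all genes had. At 0.63 µM for 24 h the fall of CCNB1 alone passed, where 0.824% of all genes had fallen. At 0.32 µM limma called none of the 10, where 0.0201% of all genes had fallen. None of the 10 had an unadjusted p under 0.05 either, where 912 of 14936 genes did. In bulk RNA, fewer cells in late cell cycle phases and less RNA per cell cannot be told apart.

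A call here is a Benjamini-Hochberg adjusted p under 0.05 over all 14936 genes, from a limma fit of log2(TPM + 1) to all 18 libraries, with both directions tested. Differences are treated minus untreated cells of the same time on this log2 scale, which understates changes of genes near 1 TPM. The median difference of the 10 genes was -0.13 at 0.32 µM, -0.50 at 0.63 µM and -1.26 at 1.25 µM for 24 h, against 0, 0.00 and -0.01 over all genes. It was -1.29 at 48 h against -0.15 over all genes. The 3 comparisons at 24 h share the same untreated libraries. Without untreated replicates 2 and 3, which leaves 1 untreated library that is assumed to vary like the other groups, 3 of the 6 falls at 1.25 µM were still called (CDK1, CCNB1 and CCNA2) and the call of CCNB1 at 0.63 µM was lost (adjusted p = 0.0793). When the fit held no libraries but those of the compared groups, 2 of the 6 were called at 1.25 µM (CDK1 and CCNB1), and CCNB1 at 0.63 µM was not (adjusted p = 0.181).

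**Figure D2:**
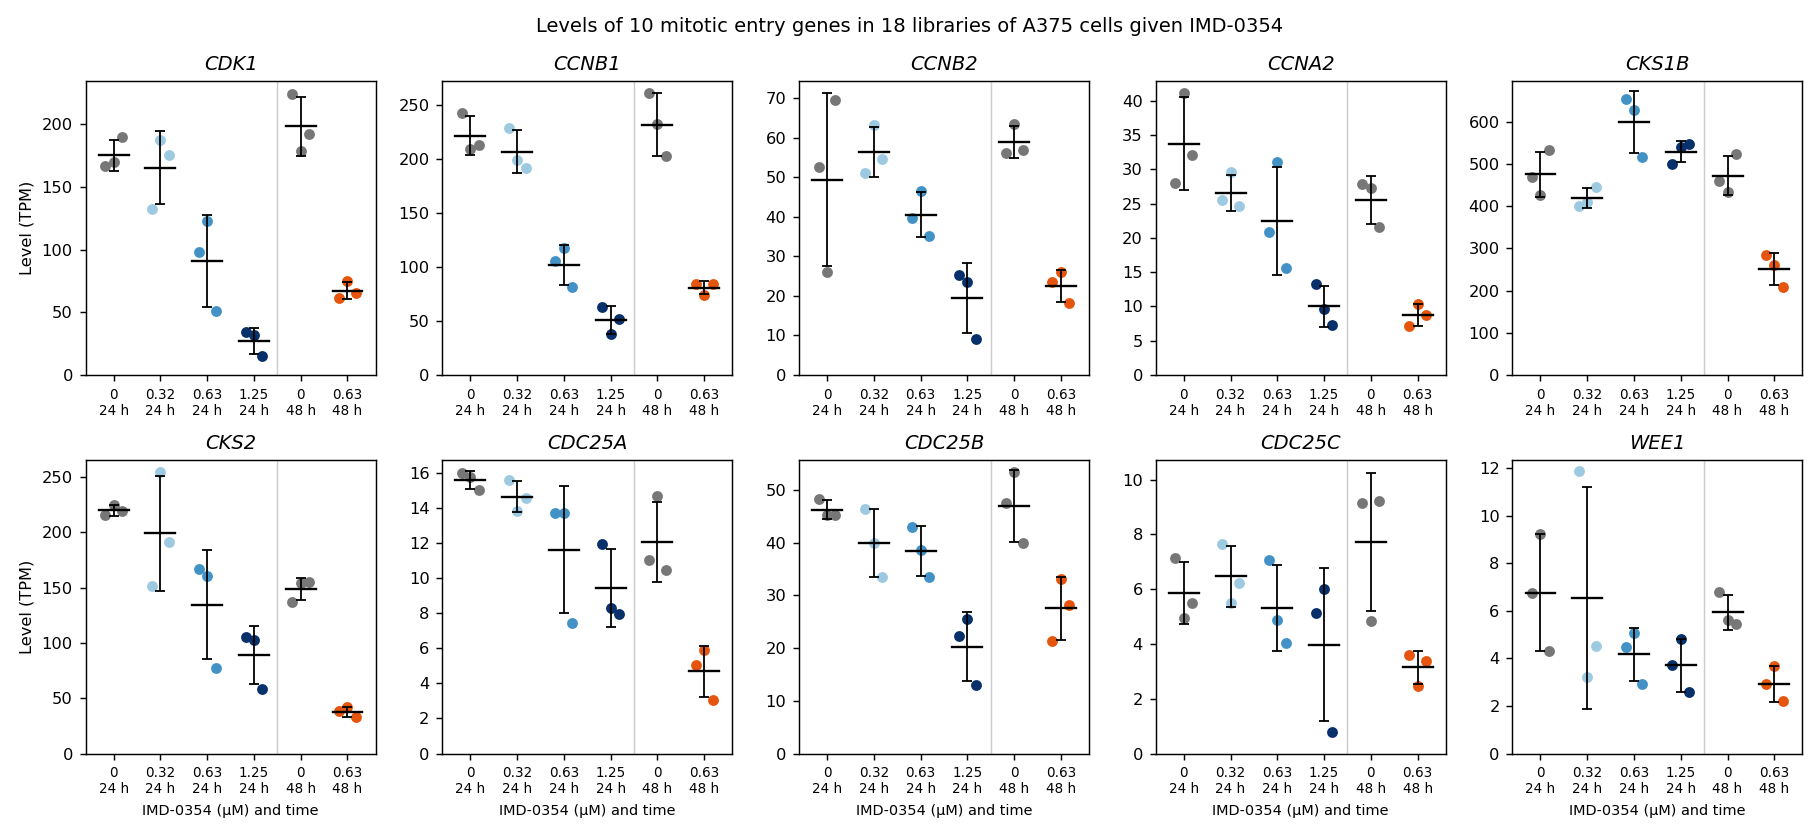
Levels of the 10 genes in TPM (y axis, from 0 and scaled to each gene) in the 6 groups (x axis: IMD-0354 in µM over hours of exposure). Points are the 3 libraries of a group in the order of their replicate numbers, long bars the mean and whiskers the SD. Grey points are untreated cells. After 0.63 µM for 48 h (orange) the libraries of all 10 genes lie under the untreated ones of that time, while CKS1B at 1.25 µM for 24 h (dark blue) overlaps with its untreated libraries.

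CDK1 (ENSG00000170312, chr10:60778331-60794852 in GENCODE release 29, GRCh38) had the largest fall of the 10 genes at 1.25 µM. It stood at 167, 170 and 190 TPM in untreated cells and at 34.2, 31.5 and 15.1 TPM after 1.25 µM. The treated libraries held 8.62 to 19.5% of the untreated mean, and the groups were far apart. The difference was -2.74 (SE 0.30, adjusted p = 3.06e-05), the 46th lowest of 14936 genes. After 0.63 µM for 24 h the 3 libraries were spread widely, at 98.5, 123 and 51.1 TPM. All of them lay under the untreated libraries, but the difference of -1.03 (SE 0.30) did not pass (adjusted p = 0.0826). At 0.32 µM the level was 165 ± 29.1 TPM (SD, n = 3) against 176 ± 12.4 TPM (SD, n = 3) in untreated cells, and the libraries overlapped.

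At 48 h, CDK1 stood at 224, 179 and 193 TPM in untreated cells and at 61.8, 74.8 and 65.1 TPM after 0.63 µM. Replicates were tight there, with a coefficient of variation of 10.0% in treated cells against 40.3% at the same dose for 24 h. The difference was -1.55 (SE 0.30, adjusted p = 0.00443). The fall of CDK1 at 1.25 µM for 24 h and at 48 h was called under all 19 and all 18 alternatives run for these comparisons, and so was that of CCNB1.

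**Figure D3:**
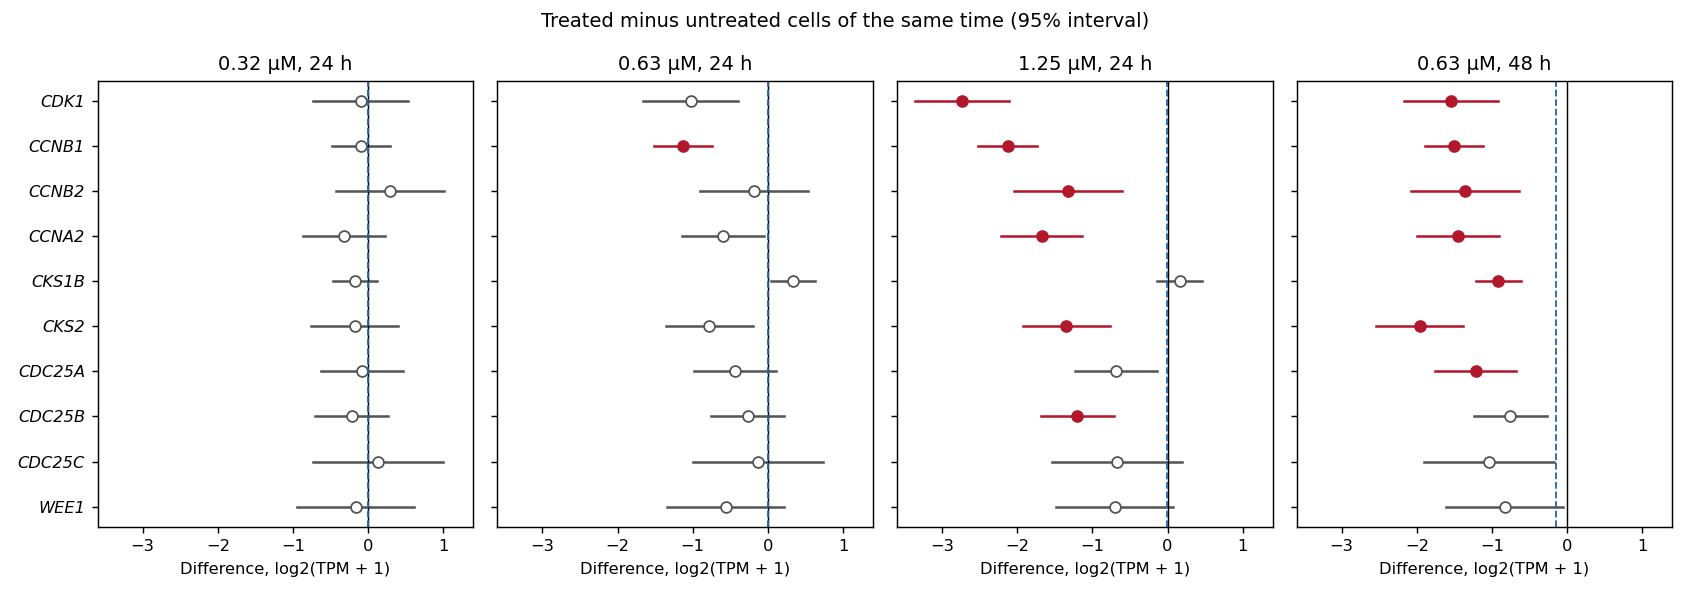
Treated minus untreated difference in log2(TPM + 1) of each gene (x axis) in 4 panels, 1 per exposure, with 95% intervals from the limma fit. Filled red points passed at an adjusted p under 0.05, open grey points did not, and the dashed blue line is the median of all 14936 genes. Filled points number 0, 1, 6 and 7 from left to right, and all lie to the left of 0.

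CCNB1 (ENSG00000134057, chr5:69167010-69178245), the cyclin of mitotic entry, was called at the middle as well as the highest dose. It stood at 242, 210 and 213 TPM in untreated cells, and at 105, 118 and 81.7 TPM after 0.63 µM for 24 h. The groups did not overlap, and the difference was -1.13 (SE 0.18, adjusted p = 0.0057). At 1.25 µM its libraries were at 63, 37.9 and 51.7 TPM. This was 22.9% of the untreated mean, a difference of -2.13 (SE 0.18, adjusted p = 3.79e-06). In untreated cells of 48 h it stood at 261, 232 and 203 TPM, and in treated cells at 84.6, 74.2 and 84.0 TPM, a difference of -1.50 (SE 0.18, adjusted p = 0.00011). At 0.32 µM it overlapped with untreated cells (207 ± 19.8 against 222 ± 18.1 TPM, SD, n = 3 each).

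CCNB2 (ENSG00000157456, chr15:59105078-59125045), the other B-type cyclin, was less even between untreated libraries. At 24 h these were at 52.7, 26.2 and 69.5 TPM, and the libraries of 1.25 µM at 25.3, 23.6 and 9.17 TPM. The lowest untreated library, replicate 2, lay just above the highest treated one. The difference was -1.32 (SE 0.34, adjusted p = 0.0197), and the call was lost without untreated replicate 1 (0.0628), untreated replicate 3 (0.0749) or treated replicate 3 (0.0954). At 48 h, untreated libraries stood at 56.2, 63.6 and 57.0 TPM and treated ones at 23.5, 26.2 and 18.2 TPM. The groups were clearly apart there, at -1.36 (SE 0.34, adjusted p = 0.0213). The call was lost without treated replicate 3 (0.104) or without untreated replicate 1 (0.0623), 2 (0.0795) or 3 (0.0548). At 0.63 µM for 24 h CCNB2 stood at 40.5 ± 5.66 TPM (SD, n = 3) and overlapped with untreated cells, with a 95% interval of the difference from -0.90 to 0.54.

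CCNA2 (ENSG00000145386, chr4:121816444-121823933) encodes the cyclin of S phase and G2. It was at 28.0, 41.2 and 32.02 TPM in untreated cells and at 13.2, 9.55 and 7.23 TPM after 1.25 µM. All treated libraries lay under all untreated ones, and the difference was -1.68 (SE 0.26, adjusted p = 0.000648). At 0.63 µM for 24 h the libraries, at 20.8, 31.0 and 15.5 TPM, overlapped with untreated ones, and the difference of -0.60 (SE 0.26) did not pass (adjusted p = 0.229). At 48 h untreated cells had 27.8, 27.3 and 21.6 TPM and treated cells 7.08, 10.4 and 8.73 TPM. That difference was -1.45 (SE 0.26, adjusted p = 0.0023).

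Of the CKS genes, CKS2 was called lower at 1.25 µM for 24 h, and CKS1B was called at no dose for 24 h. CKS2 (ENSG00000123975, chr9:89311198-89316703) stood at 216, 225 and 219 TPM in untreated cells, at 166, 160 and 77.6 TPM after 0.63 µM and at 105, 103 and 58.7 TPM after 1.25 µM. At 1.25 µM it had fallen to 40.4% of the untreated mean, a difference of -1.35 (SE 0.27, adjusted p = 0.00473). At 0.63 µM the libraries lay under the untreated ones, but the difference of -0.78 (SE 0.27) did not pass (adjusted p = 0.145).

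CKS1B (ENSG00000173207, chr1:154974653-154979249) was the most abundant of the 10 genes in every group. It stood at 469, 426 and 533 TPM in untreated cells, at 400, 411 and 447 TPM after 0.32 µM, at 656, 629 and 518 TPM after 0.63 µM and at 501, 541 and 548 TPM after 1.25 µM. No library of 1.25 µM was under the lowest untreated one. The difference there was 0.16 with a 95% interval from -0.14 to 0.46, whose lower end lies above the upper end of the interval for CKS2 (-0.77). At 0.63 µM it was 0.33 (interval 0.04 to 0.63, adjusted p = 0.22). The libraries of 0.63 µM all lay above those of 0.32 µM, a step of 0.51 (SE 0.14, adjusted p = 0.118).

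At 48 h both genes fell. CKS1B was at 459, 434 and 525 TPM in untreated cells and at 284, 261 and 208 TPM after 0.63 µM, a difference of -0.92 (SE 0.14, adjusted p = 0.000746). CKS2 was at 137, 155 and 155 TPM and at 38.1, 41.7 and 32.7 TPM, a difference of -1.96 (SE 0.27, adjusted p = 0.000394). This was the largest fall of the 10 genes at 48 h, with 25.2% of the untreated mean left. In untreated cells CKS2 was lower at 48 than at 24 h in every library, though that difference of -0.56 (SE 0.27) did not pass (adjusted p = 0.653).

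The ratio of CKS2 to CKS1B within a library was 0.460, 0.529 and 0.411 in untreated cells at 24 h. It was 0.254, 0.255 and 0.150 after 0.63 µM and 0.209, 0.190 and 0.107 after 1.25 µM. The treated ratios all lay below the untreated ones, while at 0.32 µM they overlapped (0.378 to 0.620). At 48 h the ratio was 0.295 to 0.356 in untreated cells and 0.134 to 0.160 in treated cells, again without overlap. With 3 against 3 libraries an exact permutation test cannot go below p = 0.1, so these ratios are given as a description. The 7 processed pseudogenes of CKS1B in the table together had at most 1.71 TPM in any library.

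**Figure D4:**
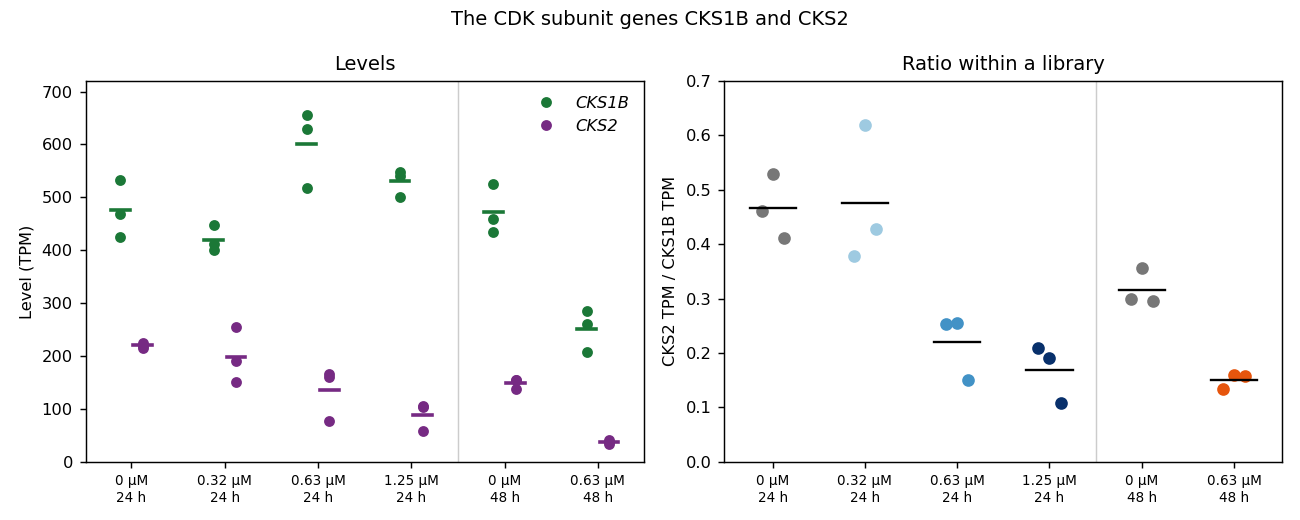
Left, levels of CKS1B (green) and CKS2 (purple) in TPM in each library, with group means as short bars. Right, the ratio of CKS2 to CKS1B within each library, with group means in black. The x axis gives dose and time. At 0.63 and 1.25 µM for 24 h the CKS2 libraries lie under the untreated ones, while those of CKS1B overlap with them. The fall of CKS2 passed at 1.25 µM and not at 0.63 µM. The ratio lies at or below 0.255 in the 6 libraries of these doses at 24 h against 0.411 or more in the untreated ones of that time.

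The promoters of both CKS genes hold a CHR spelling and CCAAT boxes. The 150 bases before the outermost annotated start of each gene are shown to let the pair be compared. Capitals mark CCAAT, its reverse complement ATTGG and CHR spellings, on the plus strand of GRCh38.p14.
CKS1B (chr1:154974503-154974652): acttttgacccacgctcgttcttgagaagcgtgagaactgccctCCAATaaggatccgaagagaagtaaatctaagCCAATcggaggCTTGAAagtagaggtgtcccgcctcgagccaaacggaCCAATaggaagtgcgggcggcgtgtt
CKS2 (chr9:89311045-89311194): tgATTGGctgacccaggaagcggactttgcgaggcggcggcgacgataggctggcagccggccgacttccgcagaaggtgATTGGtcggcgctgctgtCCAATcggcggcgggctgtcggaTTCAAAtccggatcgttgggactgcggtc

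Each of these stretches holds 3 CCAAT boxes. They run in the sense direction in CKS1B, while CKS2 has 2 in reverse and 1 in sense. The CHR spelling next to the start of CKS1B straddles the end of the stretch shown and is seen whole in the 30-base window above. Both promoters hold these letters, and at 1.25 µM CKS2 was called and CKS1B was not. Whether the letters bear on this was not tested. The letters say nothing of binding in these cells.

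Of the CDC25 phosphatases, CDC25B (ENSG00000101224, chr20:3786772-3806121), which starts CDK1 activation at the centrosome, fell at the highest dose. It stood at 48.3, 45.3 and 45.2 TPM in untreated cells and at 22.2, 25.5 and 13.1 TPM after 1.25 µM. The groups were far apart, with a difference of -1.20 (SE 0.23, adjusted p = 0.00329). At 0.63 µM for 24 h it was at 42.9, 38.6 and 33.5 TPM, all under the untreated libraries, at a difference of -0.27 (adjusted p = 0.588). After 48 h it was at 47.5, 53.4 and 39.8 TPM in untreated and at 21.3, 33.2 and 28.2 TPM in treated cells. The groups did not overlap, but the difference of -0.76 (SE 0.23) just missed the threshold (adjusted p = 0.0557) and passed under 5 of 18 alternatives.

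CDC25A (ENSG00000164045, chr3:48157146-48188402) acts at the start of S phase as well as at mitosis. Its untreated libraries at 24 h were nearly equal, at 16.0, 15.8 and 15.0 TPM. Those of 1.25 µM were at 11.97, 8.32 and 7.97 TPM, all lower, but the difference of -0.69 (SE 0.26) did not pass (adjusted p = 0.0972). Its 48 h libraries stood at 11.1, 14.7 and 10.4 TPM in untreated and at 5.07, 5.91 and 3.07 TPM in treated cells. This was a fall of -1.22 on the log2 scale (SE 0.26, adjusted p = 0.00788), and without treated replicate 3 its adjusted p was 0.0502.

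CDC25C (ENSG00000158402, chr5:138285265-138338355), the phosphatase that CDK1 itself switches on, was among the lowest of the 10 genes. At 1.25 µM for 24 h its libraries were at 5.14, 6.00 and 0.80 TPM against 7.13, 4.94 and 5.49 TPM in untreated cells. A single library, replicate 3, lay under the untreated range, and the difference of -0.67 (95% interval -1.54 to 0.19) did not pass (adjusted p = 0.323). At 48 h it stood at 9.15, 4.83 and 9.24 TPM in untreated and at 3.60, 2.46 and 3.38 TPM in treated cells. The groups did not overlap, and the difference of -1.04 (SE 0.41) did not pass (adjusted p = 0.143).

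WEE1 (ENSG00000166483, chr11:9573681-9593457), the kinase that opposes the phosphatases, was at a like low level. At 24 h it stood at 6.74, 9.26 and 4.33 TPM in untreated cells, at 11.9, 3.23 and 4.52 TPM after 0.32 µM and at 3.72, 4.83 and 2.57 TPM after 1.25 µM. These groups overlapped, and at 1.25 µM the difference was -0.70 (95% interval -1.48 to 0.07, adjusted p = 0.244). At 48 h it stood at 6.78, 5.62 and 5.44 TPM in untreated and at 2.91, 3.70 and 2.20 TPM in treated cells. The groups were apart, but the difference of -0.83 (SE 0.37) did not pass (adjusted p = 0.2). The intervals of CDC25C and WEE1 reached from a fall of more than 1 on the log2 scale to near 0, so their results do not show that they were unchanged.

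The ratio of the summed CDC25 levels to WEE1 overlapped between treated and untreated libraries at every dose and time. It was 11.0 ± 4.04 (SD, n = 3) in untreated cells and 9.11 ± 1.28 (SD, n = 3) after 1.25 µM for 24 h. At 48 h it was 11.3 ± 1.52 and 12.4 ± 2.92 (SD, n = 3 each). The ratio of CCNA2 to CDK1 was 0.167, 0.243 and 0.169 in untreated cells and 0.386, 0.303 and 0.478 after 1.25 µM, without overlap. At 48 h it was 0.130 ± 0.021 and 0.129 ± 0.013 (SD, n = 3 each), and the libraries overlapped. The ratio of CCNB1 to CDK1 overlapped throughout, and was 1.20, 1.84 and 3.41 in the libraries of 1.25 µM against 1.12 to 1.45 in untreated cells.

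In untreated cells at 24 h the order of mean levels was CKS1B, CCNB1, CKS2, CDK1, CCNB2, CDC25B, CCNA2, CDC25A, WEE1 and CDC25C, from 476 to 5.85 TPM. CCNB1 and CKS2 did not differ beyond their spread, nor did CCNB2 and CDC25B, nor WEE1 and CDC25C. After 1.25 µM, CKS2 (88.8 ± 26.1 TPM) came before CCNB1 (50.8 ± 12.6 TPM) and CDK1 (27.0 ± 10.3 TPM, SD, n = 3 each). The summed level of the 10 genes was 1173 to 1326 TPM in untreated cells and 714 to 791 TPM after 1.25 µM, of which CKS1B made up the larger part. After 0.63 µM for 48 h the sum was 454 to 533 TPM against 1169 to 1240 TPM in untreated cells. Because 3' end libraries yield about the same number of tags for long and short transcripts, the division by length may shift the order between genes.

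The lowest library of a group was often the same for many of these genes at the higher doses. At 0.63 µM for 24 h, replicate 3 was the lowest of the 3 libraries for 10 of 10 genes, CKS1B included. At 1.25 µM replicate 3 was the lowest for 8 of 10, and at 48 h replicate 3 was the lowest for 5 of 10 in treated cells and for 5 of 10 in untreated cells. At 0.32 µM and in untreated cells at 24 h no library was the lowest for more than 4. The same count was not made over all genes, so these counts do not show a trait of the 10 genes. Over the 18 libraries Pearson's r of log2(TPM + 1) between pairs of the genes other than CKS1B ran from 0.477 to 0.942 with a median of 0.688 over 36 pairs. For the 9 pairs with CKS1B it ran from 0.020 to 0.667 with a median of 0.273. These values describe libraries that share doses and times, and no test was made of them.

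**Figure D5:**
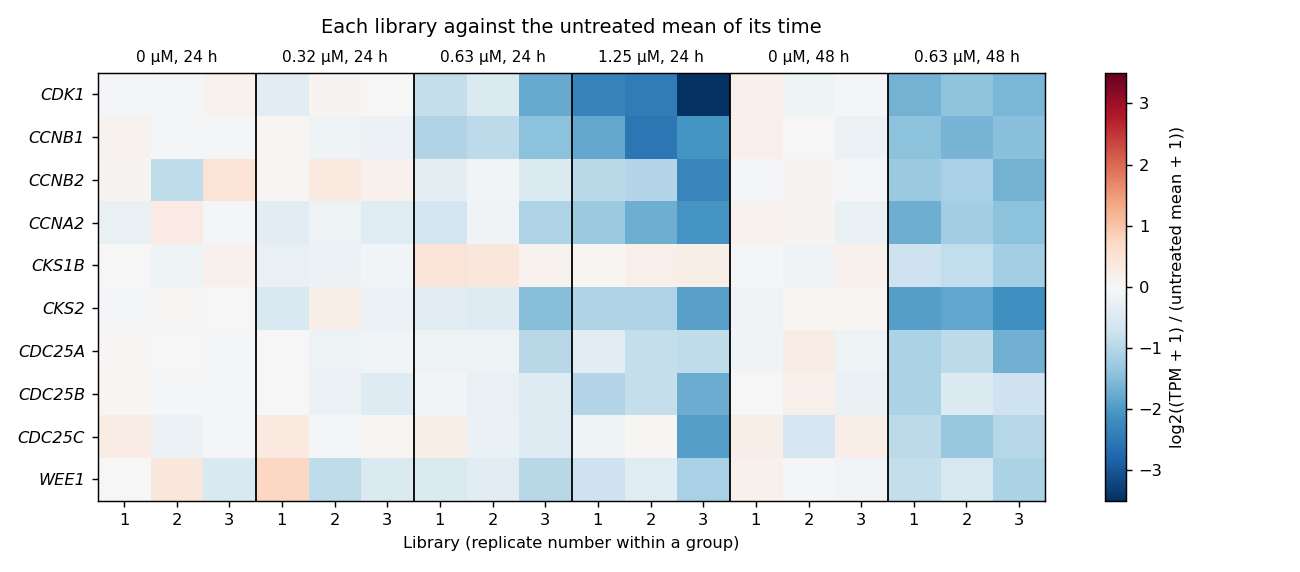
Each library against the untreated mean of its time, as log2 of (TPM + 1) over (untreated mean + 1), in blue where lower and red where higher. Rows are the 10 genes and columns the 18 libraries, by group and replicate number. Replicate 3 at 0.63 µM for 24 h has the lowest value of its group in all 10 rows, and CKS1B stays near white or pale red at 24 h.

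Neighbouring doses at 24 h were also compared, 0.63 with 0.32 µM and 1.25 with 0.63 µM. For CDK1 these steps were -0.93 (SE 0.30, adjusted p = 0.169) and -1.71 (SE 0.30, adjusted p = 0.00871). CCNB1 passed at both, with -1.03 (SE 0.18, adjusted p = 0.0169) and -0.9998 (SE 0.18, adjusted p = 0.0103). CCNA2 had -0.28 (adjusted p = 0.672) and -1.07 (SE 0.26, adjusted p = 0.0481). Whether a gene's 2 steps differed was not tested. The first step thus called 1 of the 10 genes, where 0.154% of all genes had fallen, and the second called 3, where 1.04% had. The calls of the steps depended on single libraries. That of CCNB1 at the first was lost without 0.32 µM replicate 1 (0.0956) or 3 (0.0544) or 0.63 µM replicate 3 (0.121), and at the second without 0.63 µM replicate 1 (0.0527) or 2 (0.0597). That of CCNA2 was lost without 0.63 µM replicate 1 (0.114) or 2 (0.176), or 1.25 µM replicate 2 (0.101) or 3 (0.193).

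The same dose was compared between times through the difference of its effects, 48 h minus 24 h. CKS1B was the only gene of the 10 that passed, at -1.25 (SE 0.20, adjusted p = 0.0361), where 0.0201% of all genes had a lower effect at 48 h. Its effect was 0.33 at 24 h and -0.92 at 48 h. This call was lost without any 1 of 8 of the 12 libraries in the comparison, with adjusted p from 0.0557 to 0.121, and under both other scalings. The other 9 genes all had a more negative effect at 48 h, from -0.27 (WEE1) to -1.18 (CKS2 and CCNB2), and none passed. The median over the 10 was -0.82 and that over all genes -0.17.

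Non-overlapping libraries were counted as well. All 3 treated libraries lay under all 3 untreated ones for 5 of the 10 genes at 0.63 µM for 24 h (9.26% of all genes), for 7 at 1.25 µM (13.7% of all genes) and for 10 at 48 h (21.3% of all genes). At 48 h the median of all genes was itself below 0, and median-of-ratios scaling moved it by 0.15 to 0.00. Under that scaling the split of all calls changed from 849 lower and 291 higher to 509 lower and 496 higher. The median of the 10 genes was then -1.10, and the 7 calls of the main fit at 48 h were kept under it and under quantile normalization. Untreated cells at 48 and 24 h were also compared: limma called none of the 10 genes and 0.0134% of all genes. None of the 10 had an unadjusted p under 0.05, where 1181 of 14936 genes did. With no compound present, 3 of the 10 (CCNA2, CKS2 and CDC25A) had every library of 48 h under every library of 24 h (7.65% of all genes).

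Other genes of the pathway were followed as 3 lists. Of 24 regulators of mitotic entry 23 were tested (CCNB3 was below the filter). None was called at 0.32 or 0.63 µM for 24 h, 7 had fallen and 1 had risen at 1.25 µM (6.36% and 4.94% of all genes), and 8 had fallen at 48 h (5.68% of all genes). AURKA, the kinase that with BORA activates PLK1, fell from 117 ± 45.3 to 25.6 ± 13.7 TPM at 1.25 µM (SD, n = 3 each; -2.25, adjusted p = 0.000874). GTSE1, a microtubule-binding protein of G2, fell from 22.5 ± 2.49 to 4.67 ± 2.58 TPM (-2.17, adjusted p = 0.00034), and CCNF, cyclin F, from 7.95 ± 3.67 to 1.54 ± 0.72 TPM (-1.76, adjusted p = 0.00648). The gene that rose was CCNA1, the cyclin A of germ cells, from 2.40 ± 1.24 to 9.11 ± 3.32 TPM (1.60, adjusted p = 0.027); it was named after its value was seen, and 1 of 23 genes is near the share of all genes that rose. The list's median was -0.86 at 1.25 µM and -0.75 at 48 h, against -0.01 and -0.15 over all genes.

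The second list held 24 genes, of which 23 were tested (ANAPC2 was below the filter). It covered the anaphase-promoting complex, the ubiquitin ligase that ends the life of the mitotic cyclins, and its partners. SKP1, SKP2, BTRC, FBXW11 and CUL1 in it belong to other ubiquitin ligases. The counts and median of the list are therefore not those of the complex alone. At 0.63 µM for 24 h 1 had risen, the subunit gene ANAPC11 (0.79, adjusted p = 0.0364), where 1.36% of all genes had. At 1.25 µM 4 had fallen and 2 had risen (6.36% and 4.94% of all genes), and at 48 h 5 had fallen (5.68% of all genes). ANAPC11 was named after its value was seen. SKP2, the partner of CKS1B in p27 destruction, fell from 100.3 ± 14.3 to 34.1 ± 6.91 TPM at 1.25 µM (-1.54, adjusted p = 0.00368). FBXO5, an inhibitor of the complex, fell from 16.1 ± 3.07 to 5.69 ± 3.42 TPM (-1.46, adjusted p = 0.00772). CDC26, a small subunit, rose from 27.1 ± 7.21 to 61.5 ± 9.74 TPM (1.17, adjusted p = 0.0281). The list's median was -0.09 at 1.25 µM and -0.50 at 48 h, against -0.01 and -0.15 over all genes.

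Of 16 transcription factors and cofactors of late cell cycle genes, all were tested. At 1.25 µM 5 had fallen (6.36% of all genes) and at 48 h 5 (5.68% of all genes), and none was called at the lower doses for 24 h. MYBL2, the MuvB partner in cycling cells, fell from 34.0 ± 10.7 to 7.52 ± 3.62 TPM at 1.25 µM (-2.09, adjusted p = 0.00123). E2F1 fell from 9.24 ± 2.51 to 1.99 ± 0.63 TPM (-1.77, adjusted p = 0.0036). FOXM1, a factor of G2 and mitotic genes, fell from 3.81 ± 1.82 to 0.87 ± 0.98 TPM (-1.44, adjusted p = 0.0269). All 3 were also called at 48 h, at -2.46, -1.56 and -1.33. The list's median was -0.34 at 1.25 µM and -0.56 at 48 h, against -0.01 and -0.15 over all genes.

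The genes whose pattern over the 18 libraries was most like that of a member were sought among 5588 genes with a mean of at least 10 TPM, by Pearson's r of log2(TPM + 1). For CDK1 they were TOP2A (0.958), ANLN (0.953) and H1-5 (0.950). For CCNB1 they were H4C3 (0.968), ANLN (0.947) and PBK (0.947). Histone genes have related copies, so the values of H1-5, H4C3 and H1-2 are uncertain. For CDC25B they were H1-2 (0.924), TOP2A (0.917) and CENPF (0.915). For CDC25A they were TMEM109 (0.971), SUMO3 (0.962) and SIVA1 (0.950), and for WEE1 they were NR3C1 (0.878) and ITGB1 (0.838). The libraries share doses and times, and the values are a description.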

How the data were processed

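The 18 libraries of A375 cells were made with the QuantSeq 3' FWD kit, per the labels' protocols. The submitters' processing notes name cutadapt 1.18, STAR 2.7, RSEM 1.3.1 and DESeq2 without a role; a build is not given in the sources used here. Values are TPM per gene in a single table that the authors deposited. TPM holds no counts, so the depth and the precision it allows are unknown. Symbols were looked up by Ensembl identifier, coordinates came from GENCODE release 29 (GRCh38) and promoter sequences from RefSeq.

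Genes reaching 1 TPM in 3 or more libraries were kept, and log2(TPM + 1) was fitted with limma 3.58.1 (R 4.3.3) with 1 mean per group, a mean-variance trend and Benjamini-Hochberg adjustment over 14936 genes (12 residual and 4.16 prior degrees of freedom). The procedure was tested on simulated data. The members, lists, tests and alternatives were chosen with earlier results of these data known. Every member was named. Of each list up to 3 genes were named, those with the largest change that passed at 1.25 µM; CCNA1 and ANAPC11 were named beyond this rule after their values were seen. For 5 members the 3 most similar genes with a symbol were named, except 1 for WEE1 that is not reported here. In all, 29 alternatives were planned and 2 were added after seeing the data.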

Additional observations from a re-analysis of the deposited data

Results flagged for a closer look

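CKS1B was flagged because its response to 0.63 µM differed between times by a test of that difference: 48 h minus 24 h was -1.25 on the log2 scale (SE 0.20, adjusted p = 0.0361 by limma). The level in treated cells was above the untreated mean in 3 of 3 libraries at 24 h and below it in 3 of 3 at 48 h. Its adjusted p without single libraries was 0.0995 and 0.0992 (0.63 µM 24 h replicates 1 and 2), 0.0869 (untreated 24 h replicate 1), 0.0816 and 0.0831 (0.63 µM 48 h replicates 2 and 3), and 0.1, 0.0557 and 0.121 (untreated 48 h replicates 1, 2 and 3). Groups of 3 libraries were not searched for single outlying libraries.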

How the results depend on the processing

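Of 1550 results of single genes under the alternatives, 1492 kept their side of the threshold, 47 lost a call, 11 gained one and no called result reversed. Among the 1492, 31 were called in neither fit and differed in sign. Most of the 1550 were of genes not called in the main fit of that comparison and could not lose a call. When the fit held no groups but those compared, the genes called numbered 0 at 0.63 µM for 24 h, 2 at 1.25 µM, 0 at each dose step and 0 for the difference between times. Without untreated 24 h replicates 2 and 3, chosen after seeing the data, they numbered 0 at 0.63 µM, 3 at 1.25 µM and 0 for the difference between times. Library weights gave 2 for the first step. The difference between times called 0 without a mean-variance trend, under quantile normalization, under median-of-ratios scaling and with TPM rescaled without 4 abundant chromosome 21 transcripts (also chosen after seeing the data). Leaving out single libraries gave 0 to 1 for the first step, 1 to 3 for the second and 0 to 1 for the difference between times. The call of CDC25A at 48 h was lost without treated replicate 3.

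Over the genes tested, the deviations of same-numbered libraries from their group means had r from -0.093 to 0.115. Whether the numbers mark a shared culture or day is not stated and was not tested. With a replicate block 0 genes were called for the difference between times, 6 at 1.25 µM, 8 at 48 h and 4 at the second step. Over all genes, falls ranged from 83 to 1100 at 1.25 µM (950 as reported; lowest with only the compared groups) and from 370 to 1676 at 48 h (849 as reported; lowest without treated replicate 3, highest with library weights). The causes were not tested. Adding 1 TPM to each value moved 3 of 30 group means of ratios by more than 1 SD. CDC25C and WEE1, near 5 TPM, had the widest intervals, up to 0.86 to either side against untreated cells and 1.22 for the difference between times.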
